A study of Mus musculus with 4 samples.

Results

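The trophoblast cells of E5.5 mouse embryos were compared, gene by gene, with the trophoblast cells of blastocysts labelled Reactivated. Cells with at least 1000 molecule counts (UMIs) were assigned to a lineage from 3 sets of genes. These were the epiblast set Tdgf1, Sox2, Nanog, Fgf4, Utf1, Pou3f1 and Slc7a3, the endoderm set Sparc, Col4a1, Lamb1, Srgn, Gata4, Sox17, Cubn and Amn, and the trophoblast set Gata2, Gata3, Tspan8, Dppa1, Rhox6, Rhox9, Cdx2, Hand1, Ascl2 and Elf5. A cell was trophoblast when the trophoblast set held at least 3 of its UMIs and at least 60% of its UMIs in the 3 sets together. This gave 2305 of the 14529 deposited cell barcodes, 2152 of the 9560 cells of E5.5 and 153 of the 677 cells of Reactivated. The study measured RNA of single cells, with a BD Rhapsody microwell system, in whole wildtype embryos of the strain B6C3F1/J, across diapause and the stages around implantation. The E5.5 library came from 50 embryos dissected out of their implantation sites. The Reactivated library, labelled EDG9.5+30h E2, came from 200 to 250 flushed blastocysts, as did the libraries EDG7.5 and EDG9.5, whose 614 and 975 trophoblast cells are given beside the others as a reference. Embryos were pooled before dissociation with TrypLE, there was 1 library per stage, and the treatment that produced the EDG embryos is not given in the sources used here.

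Trophoblast is the outer layer of the blastocyst and forms the embryo's part of the placenta. Cells next to the epiblast, the polar trophectoderm, keep dividing and give rise to the extraembryonic ectoderm and the ectoplacental cone, whereas cells around the cavity, the mural trophectoderm, leave the mitotic cycle and become the first trophoblast giant cells, which invade the uterus and secrete hormones of the prolactin family. In embryonic diapause the blastocyst stays unattached and nearly stops dividing, and oestrogen ends that state. A reactivated blastocyst and an implanted E5.5 embryo therefore lie on either side of attachment, a step in which trophoblast is the embryonic cell type that meets the uterus.

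The cells carried the trophoblast markers Gata3, Elf5 and Rhox6 at 190.8, 489.1 and 20.62 CPM (UMIs of the gene per 1000000 UMIs of the summed cells) in E5.5 and at 212.5, 706.4 and 72.26 CPM in Reactivated, whereas Hand1 was at 3303.0 and 180.6 CPM. Since these genes chose the cells, their levels are a description. The medians were 9049 and 11108 UMIs per cell in E5.5 and Reactivated, and the sums 20560893 and 1854469 UMIs. Mitochondrially encoded genes held 3.906% of the UMIs in E5.5 and 6.773% in Reactivated. Trophoblast made up 26.68% of the E5.5 cells with a lineage (exact Clopper-Pearson interval 25.72 to 27.66) and 23.04% of those of Reactivated (19.89 to 26.44). The libraries share 8 barcodes. In E5.5, 386 members lay at 60 to 70% of set UMIs and 575 cells just outside at 50 to 60%, against 22 and 8 cells in Reactivated.

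The rule left out a part of E5.5 trophoblast. In E5.5, 1494 cells (15.63%) had no lineage, 1408 of them with at least 5 trophoblast UMIs, whereas in Reactivated 13 cells had none. The E5.5 cells with no lineage held Eomes at 759.7, Elf5 at 590.7, Esrrb at 240.5, Bmp4 at 148.8 and Cdx2 at 96.48 CPM, genes known from the extraembryonic ectoderm, together with the epiblast-set genes Utf1 at 813.3 and Pou3f1 at 434.1 CPM. When Utf1, Pou3f1 and Sox2 were taken out of the epiblast set, an alternative chosen after the values were seen, E5.5 had 3539 trophoblast cells and Reactivated 165. Under this wider definition 713 genes were at least 2-fold higher and 446 lower in E5.5 (621 and 462 as given below), and 9 of 120 calls among named genes were lost. Log2 ratios that moved by over 1.5-fold included those of Car2 (2.93 to 3.82), F11r (-2.85 to -2.11), Plac8 (4.54 to 3.95), Prl3d1 (6.36 to 5.71) and Il24 (3.55 to 2.96).

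Each value below is the UMI sum of a library's trophoblast cells as CPM, a share of UMIs and not an amount per cell. Ratios carry exact 95% intervals for counting error only. With 1 library per stage there is no replicate check, so no test was made and no p-value is given, and stage, library, dissection and depth cannot be told apart. A gene is called at least 2-fold higher or lower from its log2 ratio after 10 CPM were added to both sides.

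The trophoblast of the 2 libraries was divided into classes. Cells were classed by their UMIs as lactogen cells (at least 3 UMIs of the placental lactogens Prl3d1, Prl3d2 and Prl3d3 together), Hand1 cells (Hand1, a giant cell transcription factor, above Elf5 and Cdx2 together) or Elf5/Cdx2 cells (the reverse; both are factors of trophoblast stem cells). Hand1, Elf5 and Cdx2 are also among the genes that chose the cells, so the shares are a description, and their intervals cover counting error within 1 library only. In E5.5 there were 470 lactogen cells (21.84%, 20.11 to 23.65), 1333 Hand1 cells (61.94%, 59.85 to 64), 289 Elf5/Cdx2 cells (13.43%, 12.02 to 14.94) and 60 tied cells. Reactivated had 0 lactogen cells of 153, which allows up to 2.382% of cells with 3 such UMIs and sets no limit on cells that express the genes below that count, 8 Hand1 cells (5.229%, 2.284 to 10.04), 141 Elf5/Cdx2 cells (92.16%, 86.7 to 95.88) and 4 tied cells. EDG9.5 had 2 Hand1 cells and 728 Elf5/Cdx2 cells, and EDG7.5 had 0 and 508, with 0 lactogen cells in both. Of the E5.5 Hand1 and Elf5/Cdx2 cells, 47 and 58 lay within 1 UMI of the boundary. Under the wider definition the E5.5 shares were 13.6% lactogen, 51.3% Hand1 and 29.6% Elf5/Cdx2, and the Reactivated share of Elf5/Cdx2 cells was 92.1%.

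**Figure D1:**
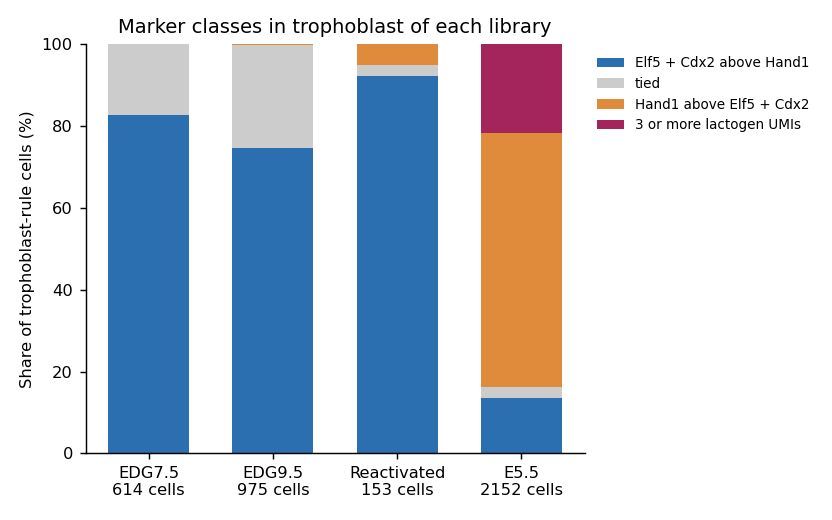
Share of trophoblast-rule cells in each marker class (y axis, %) in each library, with the number of cells under each bar. Elf5/Cdx2 cells make up 92.16% of Reactivated and 13.43% of E5.5, and lactogen cells appear in E5.5 only among these 4 libraries.

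A gene was measured when it had 10 or more UMIs over both sums and reached 10 CPM in either. Of 8186 such genes, 621 (7.59%) were at least 2-fold higher in E5.5 and 462 (5.64%) at least 2-fold lower. These shares, and those given next for Elf5/Cdx2 cells, are the reference for every count of list members below. With TMM scaling the split was 476 higher and 530 lower, and the median log2 ratio of all genes, 0.23 as given here, became 0.14. Because the class shares differed, the comparison was repeated between the Elf5/Cdx2 cells of both libraries (289 and 141 cells), where 793 of 8233 genes (9.63%) were higher and 449 (5.45%) lower. Of the genes measured in both comparisons, 426 of the 560 higher over all cells (76.1%) were among the 770 higher between Elf5/Cdx2 cells (55.3% of these), and 351 genes were lower in both, 76.5% of 459 and 78.2% of 449. The 2 comparisons share their cells in part. Under the wider definition the Elf5/Cdx2 class had 1048 cells in E5.5 and 152 in Reactivated. The comparison between Elf5/Cdx2 cells thus rests on a minor part of such E5.5 cells and on most of those of Reactivated. The Hand1 cells of E5.5 against the Elf5/Cdx2 cells of Reactivated gave 618 genes higher (7.61%) and 454 lower (5.59%).

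**Figure D2:**
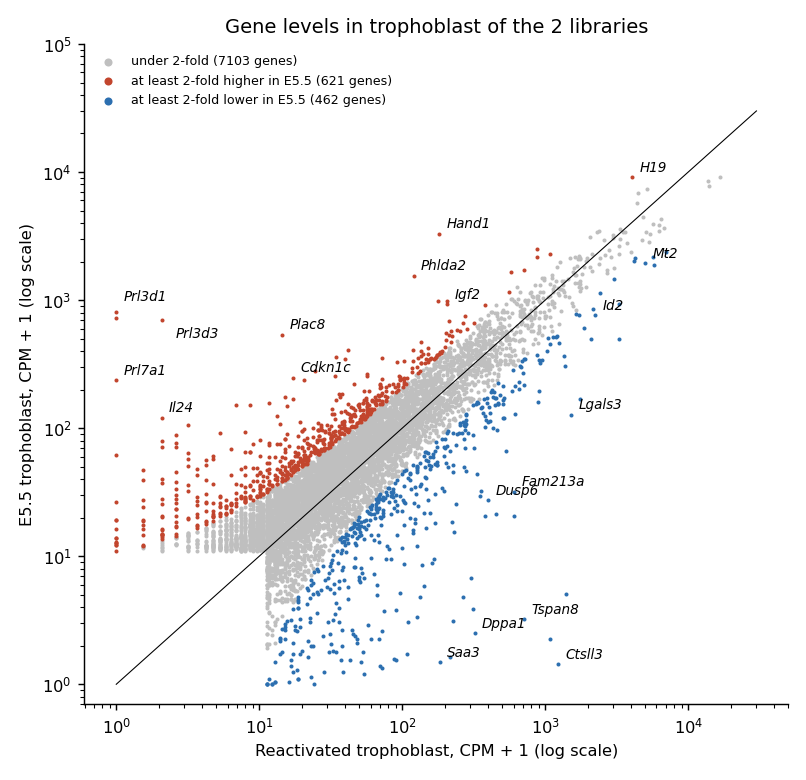
Level of each of 8186 genes in E5.5 trophoblast (y axis) against Reactivated trophoblast (x axis), in CPM + 1 on log scales, with the 621 genes at least 2-fold higher in E5.5 in red and the 462 lower in blue. Prl3d1 and Prl7a1 sit at 0 UMIs in Reactivated, and Ctsll3 lies at 1237.0 CPM in Reactivated and 0.4377 CPM in E5.5.

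The largest differences upwards were in placental lactogens, prolactin-related hormones that giant cells secrete into the maternal blood. Prl3d1 had 16627 UMIs in E5.5 (808.7 CPM) and 0 in Reactivated, EDG9.5 and EDG7.5. Against a floor of 3 UMIs over the sum it was at least 499.9-fold higher in E5.5. Prl3d2 stood at 728.6 CPM and 0, at least 450.4-fold higher, and Prl3d3 at 704.1 and 1.078 CPM, from 2 UMIs in Reactivated (ratio 652.9, interval 180.7 to 5391.5). Prl7a1, another hormone of the family, was at 235.0 CPM in E5.5 and 0 in Reactivated, at least 145.2-fold higher. With each cell thinned to 3000 UMIs, Prl7a1 was seen in 16.4% of E5.5 trophoblast cells (22.6% without thinning), against 0.22% of E5.5 epiblast cells, which should lack it and had a median of 8676 UMIs.

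Most of this signal came from a minority of cells. The 5% of E5.5 cells with the most Prl3d1 UMIs held 65% of them, and levels in the lactogen class, defined by these genes, were 3293.5 CPM for Prl3d1 against 3.811 CPM in Hand1 cells and 2.865 CPM in Elf5/Cdx2 cells. Prl7a1, which the class did not use, ran at 736.7, 89.25 and 0 CPM in the same order. Prl3d1 (chr13:27094189-27100260), Prl3d2 (chr13:27121695-27127555) and Prl3d3 (chr13:27156794-27162593) are neighbours in the GRCm38 annotation, and their longest transcripts are 98.4 to 98.5% identical. How the UMIs divide among the 3 copies is therefore uncertain, and so is their sum, since how the counting treated reads that match several copies is not given in the sources used here. Of the 30 annotated genes of this prolactin cluster, from Prl3d1 to Prl5a1, 5 were measured and 4 were higher.

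The promoters of these hormone genes are shown because 4 genes of 1 cluster moved together. Each line gives 250 bases before and 50 after the RefSeq start (GRCm38.p6), with matches to a GATA motif (AGATAA, the variant AGATAG, the form TGATAA or the form TGATAG) and to an AP-1 motif (TGACTCA, the reverse TGAGTCA, the form TGAATCA or the reverse TGATTCA), on either strand, in capitals. GATA2 and GATA3 are trophoblast transcription factors, and AP-1 is the Fos and Jun dimer.
Prl3d1 (chr13:27093939-27094238, plus strand): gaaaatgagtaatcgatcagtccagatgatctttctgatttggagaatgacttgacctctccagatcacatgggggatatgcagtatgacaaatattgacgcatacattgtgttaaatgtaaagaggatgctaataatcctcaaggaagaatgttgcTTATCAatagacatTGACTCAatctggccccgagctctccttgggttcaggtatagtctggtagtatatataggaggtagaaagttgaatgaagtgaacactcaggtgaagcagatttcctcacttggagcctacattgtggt
Prl3d2 (chr13:27121445-27121744, plus strand): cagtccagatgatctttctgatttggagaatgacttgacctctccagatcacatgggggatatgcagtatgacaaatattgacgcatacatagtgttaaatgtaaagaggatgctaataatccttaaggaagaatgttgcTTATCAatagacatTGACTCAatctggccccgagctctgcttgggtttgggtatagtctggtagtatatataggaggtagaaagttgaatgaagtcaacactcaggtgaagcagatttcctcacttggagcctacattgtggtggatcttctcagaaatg
Prl3d3 (chr13:27156544-27156843, plus strand): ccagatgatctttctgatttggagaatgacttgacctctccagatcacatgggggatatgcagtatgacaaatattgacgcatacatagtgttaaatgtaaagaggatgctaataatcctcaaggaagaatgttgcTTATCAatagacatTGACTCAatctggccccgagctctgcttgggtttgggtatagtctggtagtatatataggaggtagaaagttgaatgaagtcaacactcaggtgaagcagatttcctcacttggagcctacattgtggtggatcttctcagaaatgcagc
Prl7a1 (chr13:27642444-27642743, minus strand): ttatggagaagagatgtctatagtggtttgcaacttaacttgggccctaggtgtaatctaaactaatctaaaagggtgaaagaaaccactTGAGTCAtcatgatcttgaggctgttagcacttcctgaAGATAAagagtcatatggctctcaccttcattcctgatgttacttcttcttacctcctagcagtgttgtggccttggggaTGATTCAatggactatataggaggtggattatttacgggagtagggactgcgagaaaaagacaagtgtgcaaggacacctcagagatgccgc
Each of the 3 Prl3d promoters held 1 GATA match followed by 1 AP-1 match, at the same spacing, and the windows are 97.9 to 99.7% identical, so they are not separate cases. The promoter of Prl7a1 held 1 GATA and 2 AP-1 matches. Of 32851 RefSeq promoters of 300 bases, 29.8% held a GATA match and 7.81% an AP-1 match. A match describes the letters and is not evidence of binding.

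The giant cell list moved in both directions. Of 9 measured genes of the giant cell list, 5 were at least 2-fold higher in E5.5 (the 4 hormones and Lgmn, a protease, at 209.2 and 76.03 CPM) and 3 were lower (Ctsll3, Serpinb9b and Slco2a1). Of 13 measured vascular genes 8 were higher and 0 lower, with a median log2 ratio of 1.15 against 0.23 for all genes. Cdh5, the adhesion molecule VE-cadherin, was at 255.2 CPM in E5.5, 32.89 in Reactivated, 0.4397 in EDG9.5 and 0.5962 in EDG7.5, a ratio of 7.76 (6.031 to 10.16). Pecam1, a further endothelial adhesion molecule, was at 87.79 and 1.618 CPM (3 UMIs in Reactivated, ratio 54.27, 18.54 to 263.4). Tfpi, an inhibitor of coagulation, was at 167.7 and 16.18 CPM, and Anxa5, an anticoagulant annexin, at 351.5 and 71.18 CPM. Vegfa, Kdr, Thbd and Procr were also higher.

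Within E5.5, Cdh5 and Pecam1 were highest in lactogen cells. Cdh5 ran at 632.3, 163.9 and 0.4093 CPM in lactogen, Hand1 and Elf5/Cdx2 cells, and Pecam1 at 314.9, 17.23 and 1.637 CPM. Between the Elf5/Cdx2 cells of the libraries 4 of 10 measured vascular genes were at least 2-fold higher in E5.5 and 1 was lower, with a median log2 ratio of 0.75 against 0.27 for all genes. The higher ones were Anxa5 (1.74), Efnb2 (1.61), Vegfb (1.47) and Ephb4 (1.05), the lower one was Cdh5 (-1.55), and Pecam1 and Tfpi stood at -0.01 and -0.05. In E5.5 cells with under 3 lactogen UMIs the log2 ratio over Reactivated was 1.06 for Pecam1 (3.07 over all cells), 1.74 for Cdh5 (2.63), 0.93 for the adhesion gene Esam (2.19) and 0.84 for Tfpi (2.76), so that Esam and Tfpi were short of 2-fold. The endothelium marker list, which also holds Cdh5 and Pecam1, summed to 423.3 CPM in E5.5 and 62.01 in Reactivated. Of its 5 measured members 4 were higher and 0 lower, with a median log2 ratio of 2.19, while Tek and Cldn5 were at 0 in E5.5 trophoblast. The part of endothelial cells in these values was not tested.

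Genes of the ectoplacental cone, the outgrowth that becomes the junctional zone of the placenta, had 4 of 8 measured members higher and 0 lower. Plac8 was at 534.9 CPM in E5.5, 13.48 in Reactivated and 0 in both EDG libraries, a ratio of 39.68 (26.86 to 61.34). It ran at 1483.7 CPM in lactogen, 272.0 in Hand1 and 34.38 in Elf5/Cdx2 cells. Car2, carbonic anhydrase 2, went the other way over the classes, with 37.17, 189.3 and 344.3 CPM, and stood at 173.5 against 14.02 CPM over all cells. The connexin gene Gjb5 was at 244.8 and 101.4 CPM. Plac1 and Cited2 stood at log2 ratios of 0.62 and -0.34, short of 2-fold. With the 35 Reactivated cells described below as Ctsll3 cells left out, they stood at 1.88 and 0.23, so that Plac1 was then higher.

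Further genes among the 12 highest were Il24, a cytokine of the interleukin 10 family, at 119.5 and 1.078 CPM (2 UMIs in Reactivated, ratio 110.8, 30.64 to 915.5), and Fam171a1 at 104.8 and 2.157 CPM (4 UMIs, ratio 48.57, 18.94 to 178.4). Both were highest in lactogen cells, at 316.1 and 238.7 CPM. Chsy1, which extends chondroitin sulphate chains, was at 151.8 and 7.549 CPM, and Rps6ka6, a ribosomal S6 kinase, at 277.2 and 23.73 CPM. Emb, a subunit partner of lactate transporters, was at 356.6 and 33.43 CPM, and Bcor, a corepressor of Polycomb complexes, at 237.1 and 19.41 CPM. Across the E5.5 classes Emb ran between 188.7 and 513.6 CPM, Bcor between 163.3 and 271.7 CPM, and Rps6ka6 between 149.9 and 331.2 CPM.

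Imprinted genes, transcribed from 1 parental allele and known for their dosage effects on placental growth, were compared over all cells and between Elf5/Cdx2 cells. Of 16 measured genes 8 were at least 2-fold higher in E5.5 and 1 was lower, with a median log2 ratio of 0.99. Between Elf5/Cdx2 cells 11 of 18 were higher and 0 lower, with a median of 1.62 against 0.27 for all genes. The Reactivated Elf5/Cdx2 class holds 29 of the 35 cells described below as Ctsll3 cells. In all 35 the imprinted list summed to 1588.1 CPM, against 5807.0 CPM in the other 118. Of 13 members measured between these subsets 1 was higher in the Ctsll3 cells and 2 lower, beside 9.55% and 9.78% of all genes. Phlda2, which restrains placental growth, was at 1553.5 CPM in E5.5, 119.2 in Reactivated, 0.6595 in EDG9.5 and 1.789 in EDG7.5. The ratio of E5.5 to Reactivated was 13.04 (11.42 to 14.95) over all cells and 19.69 (17.11 to 22.77) between Elf5/Cdx2 cells. The median E5.5 cell had 974 CPM of Phlda2 and the median Reactivated cell 0, and 48 of the 153 Reactivated cells held any of its UMIs. Cdkn1c, a cyclin-dependent kinase inhibitor, was at 246.8 and 16.18 CPM (ratio 15.26, 10.67 to 22.64), and Grb10, an adaptor that dampens insulin-type receptors, at 149.9 and 5.932 CPM (25.27, 14.1 to 50.68).

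H19, a non-coding RNA, and Igf2, a growth factor, were at higher levels in Reactivated than Phlda2, Cdkn1c and Grb10. H19 stood at 9073.2 CPM in E5.5, 4051.8 in Reactivated, 5382.2 in EDG9.5 and 5383.5 in EDG7.5, and Igf2 at 928.4, 206, 342.1 and 384.8 CPM. With the 35 Reactivated cells described below as Ctsll3 cells left out, H19 was no longer 2-fold higher, at a log2 ratio of 0.87. The Reactivated values of both were thus below those of the EDG libraries, and the E5.5 values above. Meg3, a non-coding RNA, had 1259 UMIs in E5.5 and 0 in Reactivated, at least 37.85-fold higher. Sfmbt2, a Polycomb protein needed for trophoblast maintenance, was at 367 and 133.2 CPM, and Cd81 at 28.35 and 8.628 CPM. Osbpl5, a lipid transfer protein, was lower, at 7.928 and 30.74 CPM, but short of 2-fold with the same cells left out (-0.80) and between Elf5/Cdx2 cells (-0.92).

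Several of these genes lie together on distal chromosome 7 (chr7:142575530-143757008, GRCm38, from H19 to Osbpl5). This stretch has 37 annotated genes, 12 of them measured here. Over all cells 6 were higher and 1 lower, and between Elf5/Cdx2 cells 9 were higher and 0 lower. The 6 were H19, Igf2, Ascl2, Cd81, Cdkn1c and Phlda2, of which Ascl2 is also among the genes that chose the cells. With the Ctsll3 cells left out, H19 (0.87) and the lower gene Osbpl5 (-0.80) were short of 2-fold. The 9 include Igf2os, which overlaps Igf2, and without a known strand setting their UMIs cannot be told apart. Tssc4 and Nap1l4, in the same stretch, had log2 ratios of -0.59 and 0.50. Phlda2 spans chr7:143501545-143503145 and Cdkn1c chr7:143458339-143461059. The Phlda2 promoter is shown to set a CpG-rich imprinted gene beside the CpG-poor hormone promoters. Its CG pairs are in capitals and the window is as above.
Phlda2 (chr7:143502475-143502774, minus strand): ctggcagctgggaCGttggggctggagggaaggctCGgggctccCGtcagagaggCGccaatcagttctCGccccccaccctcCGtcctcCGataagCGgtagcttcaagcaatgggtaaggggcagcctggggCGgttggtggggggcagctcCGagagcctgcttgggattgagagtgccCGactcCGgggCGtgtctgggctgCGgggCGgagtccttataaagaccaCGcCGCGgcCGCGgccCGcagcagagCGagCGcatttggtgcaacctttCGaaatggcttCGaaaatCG
It holds 26 CG pairs and no match to either motif, whereas the hormone promoters hold 2 or 3 CG pairs. The median RefSeq promoter of that length has 7, and 16.9% have at least 26.

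The largest difference downwards was in Ctsll3 (chr13:60798250-60802844), a cathepsin-like protease gene of a placental cluster. It was at 0.4377 CPM in E5.5 (9 UMIs) and 1237.0 CPM in Reactivated, 2826.0 times lower (1486.1 to 6188.2), and at 0.6595 CPM in EDG9.5. In Reactivated it came from few cells: 38 of 153 cells held a UMI, and the highest cell reached 15436.7 CPM. Thinned to 3000 UMIs per cell, 23% of Reactivated trophoblast cells and 0% of Reactivated epiblast cells, with medians of 11108 and 12528.5 UMIs, had one.

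Reactivated trophoblast was therefore described in 2 subsets, 35 cells with at least 3 Ctsll3 UMIs and 118 cells with fewer. This split was chosen after the values were seen, so its values are a description. The subsets had like depth, with medians of 10626 and 11294 UMIs, and 29 and 112 of their cells were in the Elf5/Cdx2 class. Of 8043 genes measured between them, 768 (9.55%) were at least 2-fold higher in the Ctsll3 cells and 787 (9.78%) at least 2-fold lower. Dmkn, a secreted epithelial protein, was at 1249.8 and 54.85 CPM, Slc40a1, the iron exporter ferroportin, at 270.2 and 5.485 CPM, and Nfatc1, a calcium-regulated transcription factor, at 146.4 and 0.6857 CPM (1 UMI, ratio interval 36.8 to 8579.2). Plac1 was at 1174.1 and 146.7 CPM, and Hand1 at 525.2 and 87.08 CPM.

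The Ctsll3 cells were low in division genes and in H19. Of 29 measured genes of the G2 and M phase 25 were at least 2-fold lower in them and 0 higher, and the list summed to 1123.6 CPM against 4612.6 CPM in the other 118 cells and 6077.0 CPM in E5.5. Cdc20, which activates the anaphase-promoting complex, was at 7.575 and 173.5 CPM. Of 26 genes of cholesterol and fatty acid synthesis 17 were lower and 0 higher, among them the sterol regulator Srebf2 (2.525 and 101.5 CPM). Bmp4 and Esrrb, genes of the stem cell and extraembryonic ectoderm programme, had 0 UMIs in the Ctsll3 cells and 70 and 71 in the others, but that list had 4 of 20 measured members higher and 5 lower, and Tfap2a (489.8 and 172.1 CPM) and Tfap2c (795.3 and 368.9 CPM) were higher. H19 was at 767.6 CPM in the Ctsll3 cells and 4943.8 CPM in the others. Of the 26 Reactivated cells with no H19 UMI, 23 were among the 35 Ctsll3 cells, while each of the 2152 E5.5 cells held at least 1. In E5.5 a single cell had 3 or more Ctsll3 UMIs.

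**Figure D3:**
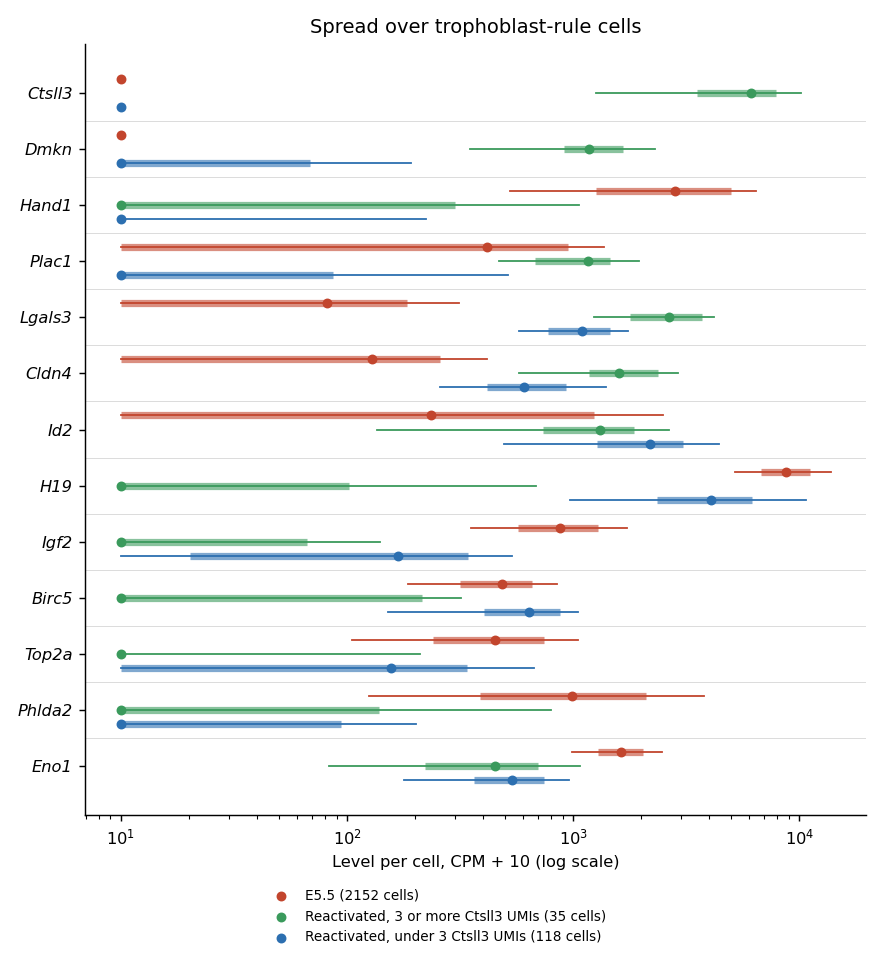
Level per cell in CPM + 10 (x axis, log scale) of 13 genes in the 2152 E5.5 cells, the 35 Reactivated cells with at least 3 Ctsll3 UMIs and the other 118 Reactivated cells. Points are medians, thick bars the 25th to 75th and thin bars the 10th to 90th percentiles over cells, which are not replicates. The median of H19 is 8705.6 CPM in E5.5, 0 in the Ctsll3 cells and 4051.7 CPM in the other Reactivated cells.

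Other genes lower in E5.5 depended on the Ctsll3 cells to different degrees. With those 35 cells left out, the log2 ratio over Reactivated became -0.44 for Ctsll3 (from -6.90), -2.33 for Dmkn (from -4.64), -3.15 for Saa3, an acute phase protein (from -4.20), and -3.04 for the glutamate transporter gene Slc1a1 (from -4.31). It was -3.76 for Slc28a3, a nucleoside transporter (from -4.41), and -3.61 for Slc6a14, an amino acid transporter (from -4.27). Ctsc, the histone genes Hist1h1c and Hist1h2bc and Ndrg1 ended at -0.15, -0.33, -0.95 and -0.41 and were no longer 2-fold lower, and Uhrf1, at 0.95, was no longer 2-fold higher. In all, 13 of 120 called genes named here lost the call, and over all genes 642 were higher and 387 lower. Other named genes gained a call, among them Plac1 (1.88), Klf6 (1.25) and Gata2 (1.10) as higher, and Epcam (-1.02) and Dnmt3l (-1.19) as lower. Over all cells Dmkn stood at 2.87 CPM in E5.5 and 310.1 in Reactivated, Saa3 at 0.4864 and 182.8 CPM, Slc28a3 at 0.6323 and 215.7 CPM, Slc1a1 at 3.842 and 265.3 CPM, and Slc6a14 at 2.14 and 224.9 CPM.

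A further set was present across Reactivated cells and scarce in E5.5. AA467197 was at 19.65 CPM in E5.5 and 605.6 in Reactivated (30.82 times lower, 27.48 to 34.62), with UMIs in 131 of the 153 Reactivated cells. Serpinb6c, a serine protease inhibitor, was at 5.739 and 299.8 CPM and found in 132 of 153 cells. Fbxo15, a ubiquitin ligase subunit known from pluripotent cells, was at 20.43 and 453.5 CPM, and Fam213a, a peroxiredoxin-like protein, at 30.79 and 606.6 CPM. Crip1, a small LIM protein, stood at 19.6 and 378 CPM. These genes were also seen in EDG9.5, from 112.6 CPM for Serpinb6c to 1736.3 CPM for Fam213a. Among the genes that chose the cells, Tspan8 (2.237 and 714 CPM) and Dppa1 (1.508 and 320.3 CPM) ran the same way, with 1558.2 and 1742.2 CPM in EDG9.5.

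A chosen list of genes with high levels in the EDG trophoblast was mostly lower in E5.5 than in Reactivated. The list of 16 genes was drawn up with the levels in these libraries known and is thus not independent evidence. It had 10 of 14 measured members lower and 0 higher, with a median log2 ratio of -1.67. H19 and Fos, also high in EDG9.5 but not on the list, ran the other way. Lgals3, the lectin galectin-3, was at 126.3 CPM in E5.5, 1512.0 in Reactivated, 1754.3 in EDG9.5 and 1757.5 in EDG7.5, and was 11.98 times lower in E5.5 than in Reactivated (11.35 to 12.64). All 153 Reactivated cells held Lgals3 UMIs, with a median of 1216.1 CPM, against 71.67 CPM in E5.5. Msx1, a homeobox factor, was at 4.815 and 141.3 CPM with 255.9 in EDG9.5. Adh1, alcohol dehydrogenase 1, was at 2.091 and 108.9 CPM with 5544.3 in EDG9.5. Adh1 was thus lower in Reactivated than in EDG9.5 and lower again in E5.5. The first difference was larger in CPM and the 2 were similar as ratios. Its ratio rests on few cells, since 2 of 2152 E5.5 cells and 31 of 153 Reactivated cells held its UMIs. The log2 ratio of E5.5 over Reactivated was -3.30, and -4.14 with means over cells. Gata2, on this list and among the rule's genes, was at 366 and 237.8 CPM, and was higher in E5.5 with the Ctsll3 cells left out (1.10).

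Carriers of water, metals and nutrients, the machinery with which trophectoderm pumps fluid and takes up substrate, had 11 of 21 measured genes lower in E5.5 and 1 higher. Their median log2 ratio was -1.16, and -0.68 between Elf5/Cdx2 cells. Aqp3, a water and glycerol channel, was at 17.46 CPM in E5.5, 221.1 in Reactivated, 975.4 in EDG9.5 and 871.6 in EDG7.5. The metallothioneins Mt1 and Mt2, which bind zinc and copper, were at 930.7 and 1936.5 CPM in E5.5 against 3266.2 and 5009.5 CPM in Reactivated, and at 10452.8 and 11952.5 CPM in EDG9.5. Fabp3, a fatty acid carrier, was at 118.8 and 506.3 CPM, and the folate receptor gene Folr1 at 18.68 and 122.4 CPM. Both metallothioneins were within 2-fold between Elf5/Cdx2 cells, at log2 ratios of -0.91 and -0.46. Fth1, ferritin heavy chain, was the higher one, at 2497.4 and 870.9 CPM; ferritin genes have many processed copies, so its count is uncertain. Levels of the glucose transporter gene Slc2a3 were in the same order, with 118.1 CPM in E5.5, 517.7 in Reactivated and 1504.8 in EDG9.5.

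Of 25 measured genes of junctions and polarity, which seal and orient the outer epithelium of the blastocyst, 7 were lower in E5.5 and 3 higher, with a median log2 ratio of -0.13. Between Elf5/Cdx2 cells 4 were lower and 3 higher, and Cldn3 (-0.65), Cldn7 (-0.84) and Marveld2 (-0.65) were then short of 2-fold. Cldn4, a claudin, was at 158.7 CPM in E5.5, 885.4 in Reactivated, 1631.8 in EDG9.5 and 1823.7 in EDG7.5, 5.578 times lower in E5.5 than in Reactivated (5.253 to 5.92). F11r, the junctional adhesion molecule JAM-A, was at 24.56 and 238.3 CPM, and Ocln, occludin, at 10.55 and 98.68 CPM. Cldn3, Cldn7, Marveld2 and Gjb2 were the other lower members. The higher ones were Tjp1 (95.03 and 40.44 CPM), a scaffold of tight junctions, Gjb5, and Jup, plakoglobin (155.8 and 63.09 CPM). Epcam, an epithelial adhesion molecule, stood at 449.5 and 825.6 CPM, within 2-fold.

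Of 19 measured genes of keratins and the actin cytoskeleton 5 were at least 2-fold lower in E5.5 over all cells, but 12 were lower and 0 higher between Elf5/Cdx2 cells, and the median log2 ratio went from -0.43 to -1.63. Tmsb4x, a thymosin that binds actin monomers, was at 2354.7 and 6959.9 CPM over all cells, and Krt18, the simple epithelial keratin, at 604.8 and 1855.0 CPM. Tpm1, a tropomyosin, stood at 1102.3 and 1252.6 CPM over all cells, but at 332.8 CPM in E5.5 Elf5/Cdx2 cells against 1258.0 CPM in those of Reactivated, and at 1897.5 CPM in lactogen cells. Anxa2, a membrane-binding annexin, likewise ran at 1127.5 CPM in lactogen cells and 183 CPM in Elf5/Cdx2 cells of E5.5. Anxa1 was higher over all cells (87.54 and 32.89 CPM) and lower between Elf5/Cdx2 cells (2.047 and 30.88 CPM). Ezr, ezrin, which ties actin to the membrane, was higher at 1728.1 and 711.3 CPM.

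**Figure D4:**
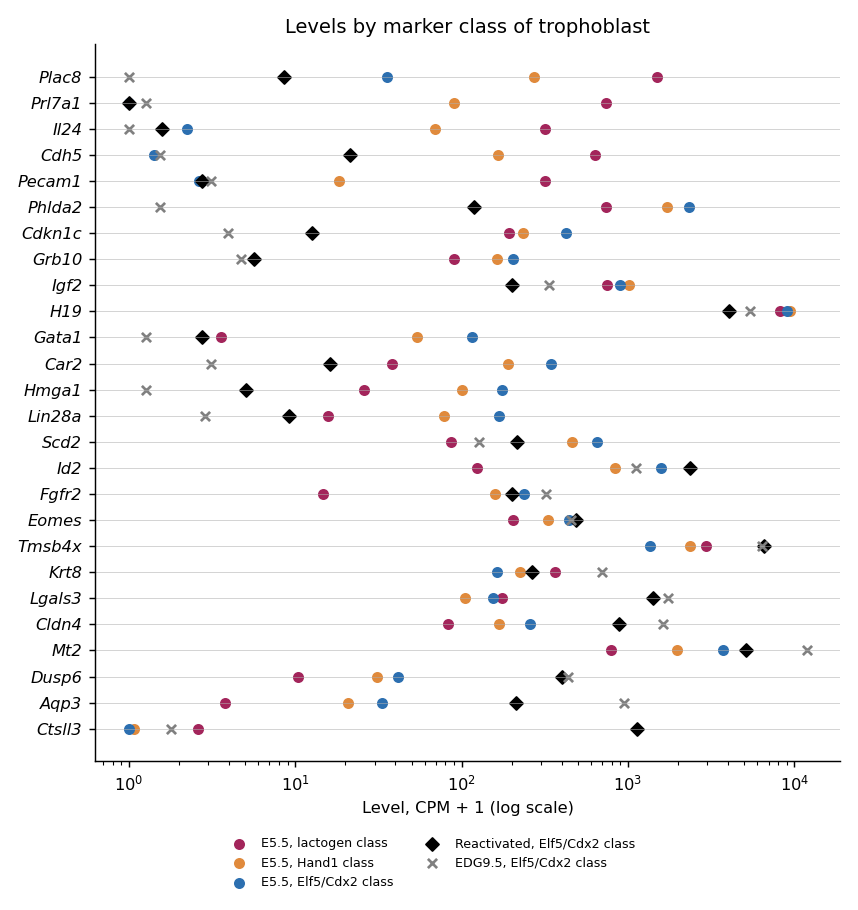
Level of 26 genes in CPM + 1 (x axis, log scale) in the marker classes of E5.5 trophoblast (circles), and in the Elf5/Cdx2 class of Reactivated (diamonds) and EDG9.5 (crosses). Phlda2, Cdkn1c, Grb10, Igf2 and H19 lie above Reactivated in all 3 E5.5 classes, Cdh5 and Pecam1 in the lactogen and Hand1 classes only, and Lgals3, Cldn4, Dusp6, Aqp3 and Ctsll3 below it in all 3.

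The stem cell and extraembryonic ectoderm list had 2 of 21 measured members higher and 2 lower, beside shares of 7.59% and 5.64% over all genes. Its median log2 ratio was -0.09, and -0.50 at a purity of 80%. These values leave out the E5.5 cells with no lineage. Those cells held Eomes at 759.7, Esrrb at 240.5 and Bmp4 at 148.8 CPM, against 315.3, 35.41 and 24.17 CPM in the E5.5 members. A lower or unchanged level of this list in E5.5 therefore cannot be told apart from the choice of cells. Under the wider definition the log2 ratio of the rule gene Cdx2 went from -1.05 to -0.26. Eomes, a factor of trophoblast stem cells, stood at 315.3 and 479.4 CPM over all cells and at 442.1 and 484.8 CPM between Elf5/Cdx2 cells. Fgfr2, the receptor for epiblast FGF4, stood at 134.9 and 192.5 CPM, and within E5.5 at 13.72 CPM in lactogen, 158.6 in Hand1 and 235.0 in Elf5/Cdx2 cells. Id2, an inhibitor of basic helix-loop-helix factors, was lower at 763.9 and 2238.9 CPM, with 122.2, 838.4 and 1572.3 CPM over the same classes. Tfap2a was lower at 89.44 and 240 CPM, and short of 2-fold (-0.87) with the Ctsll3 cells left out. Lin28a, an RNA-binding protein that blocks let-7 miRNAs, was higher at 74.56 and 8.089 CPM, and at 165.8 and 8.158 CPM between Elf5/Cdx2 cells (ratio 20.32, 11.97 to 37.51). Ets2, a factor of trophoblast self-renewal, was higher at 209.2 and 70.1 CPM.

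In FGF signalling, 3 of 13 measured genes were higher and 2 lower. Dusp6, an ERK phosphatase that ERK activity induces, was at 26.41 CPM in E5.5, 399.6 in Reactivated, 430.7 in EDG9.5 and 364 in EDG7.5, 15.13 times lower than in Reactivated (13.53 to 16.93), and had UMIs in 385 of 2152 E5.5 cells and 132 of 153 Reactivated cells. After thinning, these shares were 7.16% and 64.5% of cells, and 28.6% and 36.9% in epiblast cells, which also use this pathway. Under the wider definition the log2 ratio was -2.51 (from -3.49). Spry1, a second inhibitor of the pathway, was at 16.1 and 50.69 CPM, and its log2 ratio went from -1.22 to -0.48 under that definition, short of 2-fold. The feedback genes Spry2 and Spred2 stood at 0.40 and 0.18, and Spry4, Spred1, Dusp4, Etv4 and Etv5 were too low to be measured. Grb2 (354.5 and 127.3 CPM) and Mapk3 (81.61 and 30.74 CPM), which pass the signal from receptor to ERK, were higher, as was Ets2.

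Of 17 measured genes of BMP and Nodal signalling, 2 were lower and 0 higher, namely the BMP targets Id2 and Id3 (21.55 and 98.14 CPM). The receptor gene Bmpr1a stood at 105.7 and 107.8 CPM. Between Elf5/Cdx2 cells Id2 was short of 2-fold, at a log2 ratio of -0.58. Of 12 WNT genes 3 were higher and 0 lower: Tcf7 (59.19 and 3.775 CPM, ratio 15.68, 7.588 to 39.09) and Tcf7l1 (405.3 and 118.6 CPM), which are the DNA-binding partners of beta-catenin, and Ctnnb1, beta-catenin itself (164.3 and 54.46 CPM). Of 16 genes around TEAD and YAP, the Hippo pathway that separates trophectoderm from inner cell mass, 2 were higher (Nf2 and Amotl1) and 1 lower (Vgll3, 34.14 and 101.9 CPM), which was short of 2-fold (-0.87) with the Ctsll3 cells left out. Tead4 and Yap1 stood at log2 ratios of 0.73 and 0.63.

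Of 30 genes of the G2 and M phase 9 were at least 2-fold higher and 0 lower, with a median log2 ratio of 0.74, and 0.55 with the Ctsll3 cells of Reactivated left out. Cenpe, a kinetochore motor, was at 165.4 and 33.43 CPM, Mki67 at 142.9 and 44.22 CPM and Top2a, topoisomerase II, at 533.5 and 210.8 CPM, while Birc5 stood at 506.0 and 553.3 CPM. In EDG9.5 the same 4 genes were at 25.5, 10.33, 21.1 and 34.29 CPM. Of 29 S phase genes 2 (Uhrf1 and Dnmt1) were higher, a share near the 7.59% of all genes, and the median was 0.51. Among 17 G1 genes 3 were higher and 1 lower. Ccne1, cyclin E1, was at 381.4 CPM in E5.5, 138.6 in Reactivated and 3.298 in EDG9.5, and was at 447.4, 369.1 and 323.0 CPM in lactogen, Hand1 and Elf5/Cdx2 cells. The inhibitors Cdkn1c and Cdkn1b were higher along with it.

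Of 24 measured chromatin genes 6 were higher and 3 lower. Hmga1, an architectural protein of fast-growing embryonic cells, was at 90.66 CPM in E5.5, 4.314 in Reactivated and 0.2198 in EDG9.5 (ratio 21.02, 10.64 to 48.75), and its relative Hmga2 at 131.7 and 36.13 CPM. Hmgn5, a nucleosome-binding protein known from placenta, was at 110.5 and 18.33 CPM. The lower ones were the histone genes H2afj, Hist1h2bc and Hist1h1c. Of 13 genes of DNA methylation 4 were higher and 0 lower, with the maintenance pair Dnmt1 (112 and 42.06 CPM) and Uhrf1 (139.4 and 59.32 CPM), the dioxygenase gene Tet1 (35.31 and 5.932 CPM) and the histone methyltransferase gene Ehmt2. Dnmt3l stood at 118.4 and 229.2 CPM.

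Of 19 glycolysis genes 3 were higher, Eno1 (1664.6 and 572.1 CPM), Pgk1 (684.1 and 209.8 CPM) and Pfkp, and 1 lower, Slc2a3. Their median log2 ratio was 0.48. In EDG9.5 Eno1 and Pgk1 were at 89.91 and 23.74 CPM. Hypoxia-inducible genes other than these had 3 of 16 higher, among them Vegfa (46.79 and 15.64 CPM), and 1 lower. Of 34 nuclear genes of oxidative phosphorylation 3 were lower (Uqcrq, Cox7c and Atp5g1) and 0 higher, with a median of -0.31, and the 8 measured mitochondrially encoded genes had a median of -0.76 with 1 called lower. Since mitochondrial UMIs were 3.906% and 6.773% of the total, the part of cell quality in these values was not tested. Of 29 genes of ribosome biogenesis 0 were called in either direction, and Npm1 stood at 7420.9 and 5122.8 CPM.

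Cholesterol and fatty acid genes had 2 of 27 higher and 0 lower over all cells, a share near the 7.59% of all genes. Between Elf5/Cdx2 cells 7 of 27 were higher, against 9.63% of all genes. Scd2, a fatty acid desaturase, was at 85.87, 457.7 and 653.3 CPM in lactogen, Hand1 and Elf5/Cdx2 cells of E5.5, and at 215.6 CPM in Elf5/Cdx2 cells of Reactivated. Serine synthesis and amino acid transport had 4 of 21 higher, among them Mthfd2 (239.7 and 95.98 CPM), and 1 lower, the transporter subunit gene Slc3a2 (320.1 and 915.6 CPM). Lysosome genes had 0 of 29 higher and 5 lower, with Ctsc at 170.9 and 450.3 CPM. With the Ctsll3 cells left out, Ctsc (-0.15) and Hexa (-0.99) were short of 2-fold. In those cells 8 of 29 measured lysosome genes were higher than in the other Reactivated cells and 0 lower, beside 9.55% and 9.78% of all genes. Retinoid and steroid genes had 0 of 8 higher and 3 lower, Adh1, Alpl and Alppl2. Of 18 genes of integrins, matrix and proteases 3 were higher, among them Mmp9 and Timp1, a protease and an inhibitor of such proteases, and 4 lower, among them the basement membrane gene Nid1 (154.7 and 469.7 CPM). Mmp9, a gelatinase, was at 24.51 CPM in E5.5 and 84.68 CPM in its lactogen cells, with 2 UMIs in Reactivated.

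Of 17 immediate early genes, which tissue handling can induce, 2 were higher and 1 lower. Fos was at 982.4 CPM in E5.5, 203.3 in Reactivated, 1240.1 in EDG9.5 and 756 in EDG7.5, and Fosb at 466.8, 134.3, 393.9 and 235.2 CPM. Reactivated was thus the lowest of the 4 libraries for both. E5.5 embryos were dissected and the others flushed, and the part of collection in these values was not tested.

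**Figure D5:**
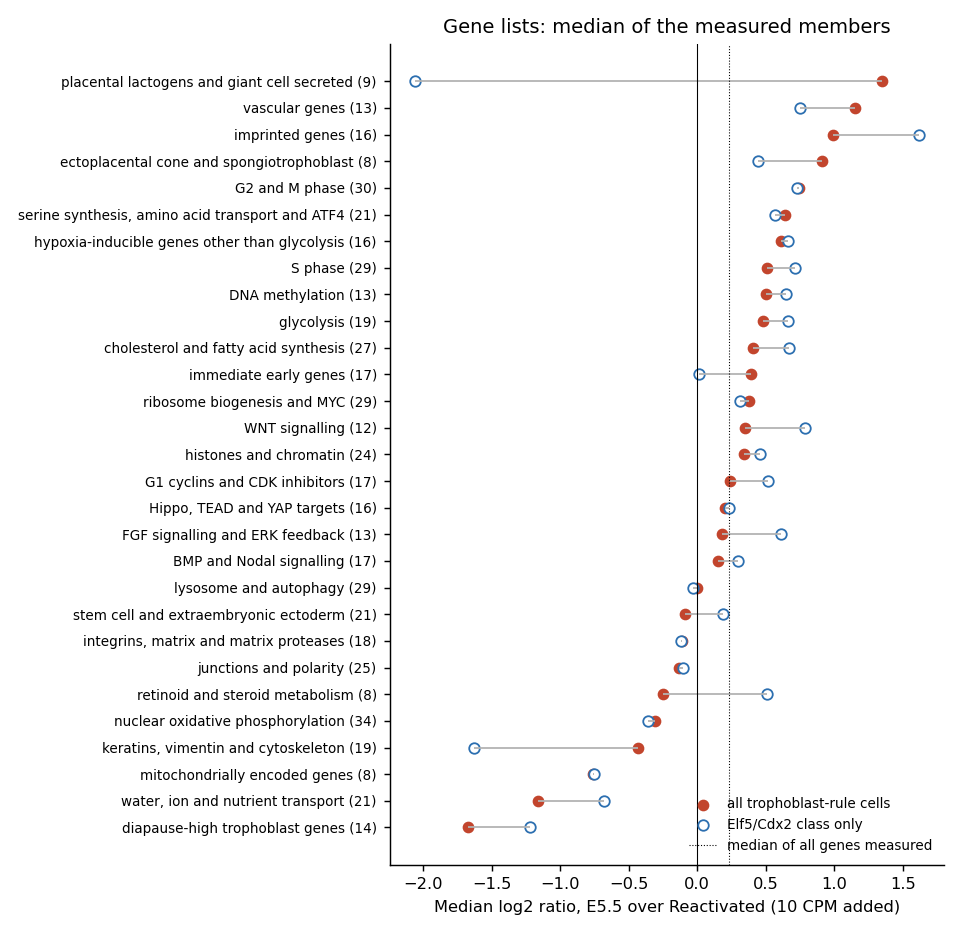
Median log2 ratio of E5.5 over Reactivated (x axis, 10 CPM added) of the measured members of each gene list, over all trophoblast-rule cells (red) and between Elf5/Cdx2 cells (open blue), with the number measured over all cells in parentheses. Imprinted genes lie at 0.99 and 1.62, cytoskeletal genes at -0.43 and -1.63, and the dotted line marks the median of all genes, 0.23.

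Markers of other cells that the samples could hold were summed in the same way. Decidual stroma markers summed to 9.581 CPM in E5.5 and 50.15 in Reactivated, with 1 of 14 measured, Cryab, and Lum, Col1a2, Col3a1 and Hoxa11 at 0 in E5.5. Uterine epithelium markers summed to 214.3 and 1052.1 CPM, with Lcn2 and Calb1 at 0 in E5.5 and Lcn2 at 1.078 CPM in Reactivated, and 3 of 5 measured were lower and 1 higher. Immune markers summed to 51.12 and 109.5 CPM with 0 of 2 called, and Ptprc and Tyrobp were at 0 in E5.5. Secreted visceral endoderm genes summed to 75.09 and 11.86 CPM, with 1 measured and higher, and further epiblast genes to 1155.7 and 2169.4 CPM, with 1 of 7 higher and 1 lower. Of the erythroid list only Gata1 was measured, at 49.66 and 2.157 CPM (4 UMIs in Reactivated, ratio 23.02, 8.964 to 84.66), while Hbb-y was at 0 in E5.5. Gata1, a GATA factor of blood cells, ran at 2.584, 52.64 and 114.6 CPM in lactogen, Hand1 and Elf5/Cdx2 cells of E5.5, the same order as Hmga1 and Lin28a. The part of other cells in these sums was not tested.

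The other lineages of the same libraries, taken by the same rule, are a reference. Between the epiblast cells of E5.5 and Reactivated 5.54% of 8653 genes were at least 2-fold higher and 7.8% lower, and between the endoderm cells 5.27% of 8636 genes were higher and 4.02% lower. Of 222 named trophoblast genes considered, 19 were called in 1 direction in trophoblast and in the opposite one in epiblast or endoderm. Dusp6 was lower in trophoblast at a log2 ratio of -3.49 and higher in endoderm at 1.0 (30.9 and 10.43 CPM in endoderm of E5.5 and Reactivated). Pecam1 was higher in trophoblast at 3.07 and lower in epiblast at -1.40 (4.397 and 28.06 CPM in epiblast).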

How the data were processed

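The authors deposited a whole-number count per gene and cell barcode. The submitters' processing notes name STAR 2.7.1a, featureCounts 1.6.4 of Subread, UMI-tools 1.0.1 and the build mm10, so the counts were taken as UMIs. Which annotation, strand setting and barcode selection the authors used is not given in the sources used here. RefSeq symbols (GRCm38.p6) matched 21344 of 25437 gene names, and older names a further 1474. E5.5 held 87507141 UMIs in all, Reactivated 9270833, EDG9.5 10994918 and EDG7.5 9620232. Without a known strand setting, overlapping and antisense genes cannot be told apart, and near-identical copies share UMIs.

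Members were taken by the rule given at the start, and no other filter on cells was applied. UMIs were summed per library and expressed as CPM, with exact Poisson intervals for CPM, exact conditional binomial intervals for ratios and Clopper-Pearson intervals for shares, all at 95%. A gene counted as measured with at least 10 UMIs in both sums together and 10 CPM in 1 of them. The ratio intervals, the fold calls and the thinning were tested on simulated Poisson counts. The lineage rule, the marker classes and the list medians were not tested in that way. For shares of cells with a UMI, cells were thinned to 3000 UMIs, leaving out 15 E5.5 cells and 1 Reactivated cell. Doublets were called with Scrublet (scanpy 1.11.5) but kept: 279 in E5.5, 28 of them trophoblast, and 1 in Reactivated, where the caller marked 0.148% of cells. TMM factors came from edgeR 4.0.16.

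The members, the 39 gene lists and the rules were chosen with earlier results of these data known. Named genes are the 12 highest and 12 lowest log2 ratios among genes with at least 50 UMIs and 100 CPM in 1 library, the 8 highest and 8 lowest of those found in at least 50% of cells of 1 library, the rule's own genes, and in each list the 4 most abundant members and, among members with at least 50 UMIs, the 2 with the largest ratio in each direction, leaving out ribosomal, mitochondrial, predicted and haemoglobin genes. Other genes named as members called in a list, the genes of the chromosome 7 stretch and those that separate the Ctsll3 cells were chosen after their values were seen.

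Alternatives were other UMI minimums, a purity of 80%, a quality filter, doublets left out, TMM, totals lacking ribosomal and mitochondrial genes, means over cells, thinned cells, other added CPM, other filters on low genes, and cells with under 3 lactogen UMIs or a trophoblast set lacking Hand1. The wider epiblast definition and the Reactivated cells with under 3 Ctsll3 UMIs were chosen after seeing the data.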

Additional observations from a re-analysis of the deposited data

Results flagged for a closer look

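Some genes named in the report were at least 2-fold different in E5.5 and Reactivated trophoblast and at least 2-fold different in the opposite direction in another lineage of the same 2 libraries. There were 21 such cases in 19 of 222 genes considered. They are given as log2 ratios with 10 CPM added, and the difference between lineages was not tested. Some rest on low levels in the other lineage, such as Msx1 in endoderm at 19.27 CPM in E5.5 and 0.8512 in Reactivated. The genes considered were chosen in part for large ratios in trophoblast, and the same count over all genes was not made.

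Lower in trophoblast and higher in endoderm were Id3 (-1.78 and 2.55), Id2 (-1.54 and 1.79), Msx1 (-3.35 and 1.43), Aqp3 (-3.07 and 1.37), Nid1 (-1.54 and 1.26), Cldn7 (-1.53 and 1.22), Ctsc (-1.35 and 1.17), Mt2 (-1.37 and 1.03) and Dusp6 (-3.49 and 1.0). Cldn7, a claudin, was also higher in epiblast, at 2.49.

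Higher in trophoblast and lower in endoderm were the connexin gene Gjb5 (1.19 and -2.70), Esam (2.19 and -1.84), Mthfd2 (1.24 and -1.38) and the amino acid transporter gene Slc38a2 (1.17 and -1.13). Higher in trophoblast and lower in epiblast were Pfkp, a phosphofructokinase (1.54 and -3.67), Tfpi (2.76 and -2.99), Jup (1.18 and -2.57), Fos (2.22 and -1.61), Pecam1 (3.07 and -1.40), Slc38a2 (1.17 and -1.14) and Ehmt2 (1.30 and -1.13).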

How the results depend on the processing

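With 1 CPM added, 1271 genes were higher and 736 lower over all cells, and 1574 and 700 between Elf5/Cdx2 cells. With 50 CPM added these counts were 122 and 179, and 151 and 186, the median of all genes was 0.12 and that of imprinted genes 0.52, and 35 of 120 calls among named genes were lost. With no filter on low genes the medians were 0.02 and 0.19. In E5.5 cells with under 3 lactogen UMIs the giant cell list's median was -2.02 and the log2 ratio of Anxa1 turned to -0.30. With a trophoblast set lacking Hand1 the stem cell list's median was -0.79. The S phase median was 0.69 at a purity of 80%, 0.75 in thinned cells and 0.35 without the Ctsll3 cells of Reactivated. Without Utf1, Pou3f1 and Sox2 in the epiblast set there were 3539 E5.5 cells. The other alternatives in processing kept both counts over all cells within 1.5 times of 621 and 462. The cause of these moves was not tested.

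No paired analysis was possible because each stage has 1 library. The 153 Reactivated cells and their 1854469 UMIs limit the comparison, so a gene at a few CPM there rests on a few UMIs, and the intervals leave out the spread between embryos and libraries.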

Other observations

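Among the Reactivated cells, genes other than those in the report also separated the 35 cells with at least 3 Ctsll3 UMIs from the other 118. These genes were chosen after their values were seen. Ly6a, a membrane-anchored surface antigen, was at 10.1 CPM in the Ctsll3 cells and 482 CPM in the others, and Msx1 at 2.525 and 179 CPM. The DNA methylation genes Dnmt3b (55.55 and 340.8 CPM) and Dnmt3l (32.82 and 282.5 CPM) were lower in the Ctsll3 cells. Cited2, a transcriptional coregulator of placental development, was at 1754.8 and 533.5 CPM, Gata2 at 502.4 and 165.9 CPM, and Anxa1 at 136.3 and 4.8 CPM. Elf5 and Eomes stood at 590.8 and 595.9 CPM in the Ctsll3 cells against 737.8 and 447.7 CPM in the others, so both were within 2-fold. The list of genes high in EDG trophoblast had 7 of 13 measured members higher in the Ctsll3 cells and 2 lower, 1 of them Msx1.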
